A study of Mus musculus with 15 samples.

Results

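Tfap2c, Esx1, Plac8 and Dab2 are mouse genes best known from the extraembryonic lineages, the trophoblast and the endoderm that surround the embryo. They were read here in mouse embryonic stem (ES) cells. All probe sets annotated to the 4 genes were taken, which gave 6 of 12654 probe sets (4 of 8220 named genes), and all 6 passed the filter on low values. A probe set is a group of short probes that reads a transcript. Tfap2c, Esx1 and Plac8 had a single probe set each and Dab2 had 3. The genes were picked with their values on these same arrays known, so their differences between lines and times are given as a description, without a test.

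Total RNA was hybridized to Affymetrix MGU74A arrays, per the labels, after stimulation with fetal bovine serum (FBS) for 0, 10, 30, 60 or 180 min. The rescue line (E100-/-rescue) and the Srf-null line (E100-/-) share the E100-/- genotype, which lacks serum response factor (Srf). The wild-type line is E14 (E14wt). Each line and time had 1 array, 15 in all, so the 5 time points of a line stand in for its replicates. Not stated in the labels are the way the rescue was made, whether a line is a single clone, and whether the times came from separate cultures. The spread given here is therefore a spread over times of a line and may be technical.

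Tfap2c encodes AP-2 gamma, a transcription factor of the trophectoderm and its trophoblast descendants that also acts in primordial germ cells. Esx1 is an X-linked, paternally imprinted homeobox gene of the placenta, expressed in trophoblast of the labyrinth. Plac8 (placenta-specific 8) encodes a small cysteine-rich protein first found in placenta and also made by blood cells and epithelia. Dab2 encodes a clathrin adaptor that takes receptors of the low-density lipoprotein family into the cell, and it is a classical gene of primitive and visceral endoderm. Srf binds a DNA element called the CArG box, in which only A or T stand between CC and GG, and through it drives serum-induced and cytoskeletal genes.

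On the GRCm38.p6 build, RefSeq places Tfap2c at chr2:172545678-172558622, Esx1 at chrX:137115397-137122131, Plac8 at chr5:100551589-100572253 and Dab2 at chr15:6299788-6440715. Because the lines are labelled by Srf genotype, the RefSeq promoter windows of the genes are shown, each from 250 bases before to 50 bases after an annotated start. Tfap2c had no entry in the table, and the other 3 genes had 5 windows. For each of these genes 1 window is printed 5′ to 3′, with a motif match in capitals where there was one.
Plac8, chr5:100572156-100572455, minus strand: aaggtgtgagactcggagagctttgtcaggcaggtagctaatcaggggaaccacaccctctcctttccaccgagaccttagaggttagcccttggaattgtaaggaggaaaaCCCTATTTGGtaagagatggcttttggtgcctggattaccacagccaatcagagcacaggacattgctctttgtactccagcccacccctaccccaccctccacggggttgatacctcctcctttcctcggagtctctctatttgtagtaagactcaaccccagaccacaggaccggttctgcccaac
Esx1, chrX:137120277-137120576, minus strand: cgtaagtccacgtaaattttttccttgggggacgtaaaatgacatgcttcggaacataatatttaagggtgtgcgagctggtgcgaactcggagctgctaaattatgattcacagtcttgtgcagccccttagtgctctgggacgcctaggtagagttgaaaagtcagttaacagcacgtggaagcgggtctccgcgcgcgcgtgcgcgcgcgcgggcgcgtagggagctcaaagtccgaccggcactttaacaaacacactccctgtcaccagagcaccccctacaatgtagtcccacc
Dab2, chr15:6386498-6386797, plus strand: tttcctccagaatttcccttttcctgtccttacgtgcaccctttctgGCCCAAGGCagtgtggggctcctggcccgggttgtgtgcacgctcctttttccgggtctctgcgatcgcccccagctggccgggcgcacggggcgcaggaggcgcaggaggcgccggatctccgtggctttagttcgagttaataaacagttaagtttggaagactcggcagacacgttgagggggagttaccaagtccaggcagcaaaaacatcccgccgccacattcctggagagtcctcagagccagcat
The Plac8 window held CCCTATTTGG, a CArG box with 1 mismatch, at position 113 counted from the window's 5′ end. An exact CArG box stood in 0 of the 5 windows. Among all 32851 mouse promoter windows of this length, 1.63% held an exact CArG box. With at most 1 mismatch, allowed only between CC and GG, 9.98% held one. The Dab2 window held GCCCAAGGC, a match to the AP-2 motif GCCNNNGGC, at position 48. That motif occurred in 16.6% of all windows. Both motifs were searched on both strands, and the matches shown do not overlap. The second Plac8 window (chr5:100563047-100563346, minus strand) and the second Dab2 window (chr15:6299539-6299838, plus strand) held no match to either motif. A match of letters is a description of the sequence and no evidence of binding.

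Before the genes are described, the arrays and the identity of the cells were checked. The deposited intensities held non-positive values, so some signal had been subtracted from them. They made up 25% to 37.6% of values on rescue arrays, 26.7% to 41.6% on Srf-null arrays and 24.9% to 29% on wild-type arrays. The actin control's 3′/5′ ratio, which can grow as RNA is degraded, was 4.22 on the rescue 0 min array, 2.94 on the Srf-null 0 min array and 7.53 on the wild-type 0 min array. From 10 min on it was 0.91 to 1.42 on rescue, 1.64 to 3.83 on Srf-null and 0.85 to 2.11 on wild-type arrays, so every Srf-null array exceeded every rescue array. Actin is itself a cytoskeletal gene, the kind driven by Srf. Between these lines, RNA quality and actin level therefore cannot be told apart in the actin ratio. The same ratio of the Gapdh control was 0.72, 1.27 and 1.51 on the rescue, Srf-null and wild-type 0 min arrays. From 10 min on the Gapdh ratio was 0.69 to 0.76 on rescue, 0.69 to 0.79 on Srf-null and 0.68 to 1.23 on wild-type arrays. It thus did not set the rescue 0 min array apart, and rescue and Srf-null arrays overlapped on it from 10 min on. The rescue 0 min array correlated best with the Srf-null 180 min array (r = 0.939 across tested probe sets), while its best match among rescue arrays had r = 0.915. The Srf-null 10 min and wild-type 30 min arrays also matched each other best (r = 0.944), above their best match within their own line (0.934 and 0.924). Differences between lines were computed over all 15 arrays and again without the 0 min arrays. Srf itself has no named probe set on this array, so the genotypes could not be checked on the targeted gene.

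All 10 ES cell markers were above the floor on at least 2 arrays of every line, and their summed intensities were 71500 to 94300 in rescue, 85000 to 112000 in Srf-null and 66500 to 108000 in wild-type cells. Over all 15 arrays 0 of the 10 had a positive difference between rescue and Srf-null cells (median -0.33), and Fgf4 was called lower in rescue cells (-0.67 ± 0.11, adjusted p = 0.035), beside 0.22% of all tested probe sets. Without the 0 min arrays 2 were called lower, Fgf4 (-0.64 ± 0.11) and Klf4 (-0.73 ± 0.12), beside 2.25% of all. The trophoblast markers were low. Of 8 listed, 7 had a probe set, and 3 in rescue, 3 in Srf-null and 1 in wild-type cells were above the floor on at least 2 arrays. Their sums were 454 to 1020 in rescue, 199 to 735 in Srf-null and 163 to 640 in wild-type cells. Hand1 and Tpbpa were never above the floor, whereas Eomes was above it on 5 rescue, 4 Srf-null and 5 wild-type arrays. Of 8 endoderm markers 7 had a probe set, and 6 in rescue, 6 in Srf-null and 5 in wild-type cells were above the floor on at least 2 arrays. Their sums were 1700 to 3190 in rescue, 2070 to 4590 in Srf-null and 2220 to 3710 in wild-type cells. Foxa2 was never above the floor, whereas Sox7 was above it on 5 arrays of every line. Gata4 was above it on 5 rescue, 3 Srf-null and 5 wild-type arrays. Of 12 fibroblast feeder markers 7 in rescue, 8 in Srf-null and 9 in wild-type cells passed the same mark. Their sums were 1670 to 2930 in rescue, 1700 to 3260 in Srf-null and 3860 to 4970 in wild-type cells, and Col1a2 was never above the floor. Of these, Acta2 was called lower in rescue and in Srf-null than in wild-type cells without the 0 min arrays, where 0.398% and 0.324% of all probe sets were called. It was the only one called of 11 tested, and the list medians were -0.09 and -0.41. Acta2 is an actin gene, and Srf drives cytoskeletal genes, so feeder cells and the Srf genotype cannot be told apart on it. In bulk RNA, fewer cells of a type and less RNA per cell cannot be told apart, and the part of other cell types in the results below was not tested.

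Intensities were quantile-normalized between arrays. A floor was set at 84.98 units (6.41 on the log2 scale), the 40th percentile of all normalized values. Intensities are given before the floor, so they can be negative, and log2 values after it.

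Tfap2c was highest in rescue cells. Its normalized intensity (probe set 92275_at) at 0, 10, 30, 60 and 180 min was 987.4, 2829, 3255, 2929 and 4457 in rescue cells. In Srf-null cells the values at the same times were -1228, -230.6, -169.5, -284.1 and 851.6. In wild-type cells they were -108.8, 549.1, 772.1, 929.1 and 478.7. Every rescue array lay above every array of the other lines, while Srf-null and wild-type arrays overlapped. The transcript stood above the floor on 5 of 5 rescue, 1 of 5 Srf-null and 4 of 5 wild-type arrays, the single Srf-null array being that of 180 min.

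The mean log2 level of Tfap2c was 11.34 ± 0.82 in rescue, 7.07 ± 1.49 in Srf-null and 8.77 ± 1.38 in wild-type cells (SD over the 5 times). Rescue minus Srf-null was 4.27 ± 0.58 (SE), a 19.3-fold higher level in rescue cells, and 4.45 ± 0.64 from 10 min on. Since 4 of 5 Srf-null values sat at the floor, the true ratio may be larger. Time by time, the difference was 3.54, 5.06, 5.26, 5.11 and 2.39 at 0, 10, 30, 60 and 180 min, so it was smallest at 180 min. The rescue level was also above that of wild-type cells. Rescue minus wild-type was 2.57 ± 0.58, or 5.94-fold, with the higher value in rescue cells at 5 of 5 times, and 2.33 ± 0.64 without the 0 min arrays. Srf-null minus wild-type was -1.7 ± 0.58, and -2.12 ± 0.64 without the 0 min arrays. It was lower in Srf-null cells at 3 times (-2.69, -3.18 and -3.45 at 10, 30 and 60 min), tied at the floor at 0 min and higher at 180 min (0.83).

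With each array's share of non-positive values as a further term in the model, the Tfap2c difference was 4.19 ± 0.64 for rescue minus Srf-null, -1.56 ± 0.73 for Srf-null minus wild-type and 2.63 ± 0.62 for rescue minus wild-type. The actin 3′/5′ ratio, higher on Srf-null than on rescue arrays from 10 min on, moved with the first difference, and its part was not tested. The Gapdh ratios of rescue and Srf-null arrays overlapped from 10 min on.

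**Figure D1:**
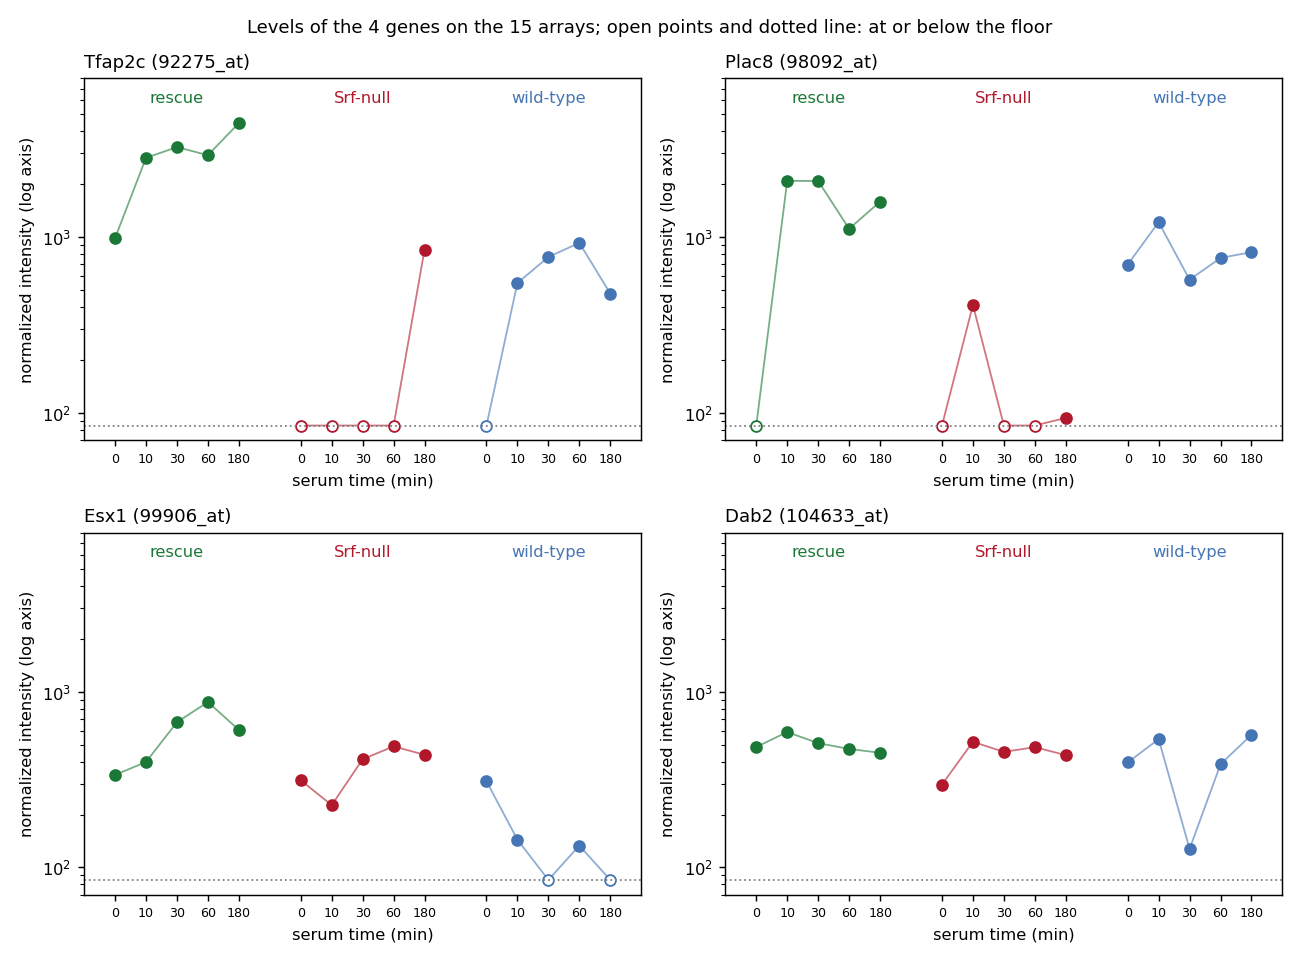
Normalized intensity (log axis) of Tfap2c, Plac8, Esx1 and the main Dab2 probe set against serum time in minutes, with 1 point per array, for rescue (green), Srf-null (red) and wild-type (blue) cells; open points lie at or below the floor (dotted line). Tfap2c in rescue cells lies above all other arrays, Plac8 is low in Srf-null cells, Esx1 is low in wild-type cells after 0 min, and Dab2 is similar in the lines apart from wild-type 30 min.

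Esx1 was ordered differently, with its lowest values in wild-type cells. Its normalized intensity (99906_at) at 0, 10, 30, 60 and 180 min was 335.8, 398, 669.3, 872.4 and 605.8 in rescue cells. The Srf-null values were 313.2, 226.1, 412.5, 488 and 437.2. The wild-type values were 309.1, 143.9, 51.2, 133.1 and 29.2. At 0 min the lines lay within 30 units of each other, and the wild-type line was below both other lines at every later time. Rescue and wild-type arrays did not overlap, whereas Srf-null arrays overlapped with those of both other lines.

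Mean log2 levels of Esx1 were 9.09 ± 0.56 in rescue, 8.5 ± 0.45 in Srf-null and 7.06 ± 0.76 in wild-type cells (SD, 5 times). Srf-null minus wild-type was 1.44 ± 0.47 (SE), or 2.71-fold. Unlike Tfap2c and Plac8, Esx1 was thus higher in Srf-null than in wild-type cells. On the quantile-normalized values this held at 5 of 5 times, although by only 0.02 at 0 min. Without the 0 min arrays this difference was 1.79 ± 0.38 and the arrays of the 2 lines no longer overlapped. Rescue minus wild-type was 2.02 ± 0.47 over all times and 2.5 ± 0.38 from 10 min on. Rescue minus Srf-null was 0.58 ± 0.47, and 0.71 ± 0.38 without the 0 min arrays, with overlapping arrays and the higher value in rescue cells at 5 of 5 times. With the floor at the 60th percentile, which lies above all wild-type and 4 of 5 Srf-null values, Srf-null minus wild-type was 0.02 and rescue minus Srf-null 0.37. With arrays scaled to a common median, Srf-null minus wild-type was 0.93 ± 0.57. The deposited intensities were not on a common scale. In them wild-type cells read higher than Srf-null cells at 0 min (231.6 against 162.5) and 10 min (276.7 against 227.9). Srf-null cells read higher at every later time.

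Plac8 was high in rescue and wild-type cells and near the floor in Srf-null cells. Its normalized intensity (98092_at) at 0, 10, 30, 60 and 180 min was 27.5, 2091, 2090, 1117 and 1593 in rescue cells. In Srf-null cells the values were 34, 411.8, -28.8, 33.3 and 93.9. In wild-type cells they were 699.7, 1218, 573.5, 762.7 and 823. All wild-type arrays lay above all Srf-null arrays. The rescue arrays lay above the Srf-null arrays from 10 min on, but the rescue 0 min array was below the floor, as were the Srf-null arrays of 0, 30 and 60 min.

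Mean log2 levels of Plac8 were 9.85 ± 1.96 in rescue, 6.89 ± 1.0 in Srf-null and 9.62 ± 0.40 in wild-type cells (SD, 5 times). Rescue minus Srf-null was 2.95 ± 0.64 (SE) over all times and 3.69 ± 0.38, or at least 12.9-fold, from 10 min on. The fold is a lower limit, since the Srf-null values at 30 and 60 min were below the floor and that at 180 min just above it. Time by time it was 0, 2.34, 4.62, 3.72 and 4.08 at 0, 10, 30, 60 and 180 min. Srf-null minus wild-type was -2.73 ± 0.64, and Srf-null cells were lower at 5 of 5 times. The Srf-null level was at most 0.151 times that of wild-type cells, a limit set by the floor, and the difference was -2.65 ± 0.38 without the 0 min arrays. Rescue minus wild-type was 0.22 ± 0.64 over all times. It was -3.04 at 0 min and 0.55 to 1.87 from 10 min on, which gave 1.04 ± 0.38 without the 0 min arrays. With the non-positive share in the model, rescue minus Srf-null was 2.41 ± 0.58, Srf-null minus wild-type -1.8 ± 0.66 and rescue minus wild-type 0.61 ± 0.56. The actin ratio moved with rescue minus Srf-null from 10 min on, as with Tfap2c, and its part was not tested. The Gapdh ratios of those arrays overlapped. On the wild-type 0 and 180 min arrays the actin ratio was 7.53 and 2.11, and Plac8 read 699.7 and 823.

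Dab2, the endoderm gene, had 3 probe sets that did not give the same picture. On 104633_at, the probe set with the highest mean, normalized intensity at 0, 10, 30, 60 and 180 min was 484.3, 588.9, 508.9, 472.3 and 448.6 in rescue cells. The Srf-null values were 295.9, 518.4, 453.9, 483.1 and 435.2. The wild-type values were 395.2, 536.5, 127.5, 386.2 and 568.6. The lines overlapped throughout. Mean log2 levels were 8.96 ± 0.15 in rescue, 8.75 ± 0.32 in Srf-null and 8.49 ± 0.87 in wild-type cells (SD, 5 times). The differences were 0.21 (rescue minus Srf-null), 0.26 (Srf-null minus wild-type) and 0.47 (rescue minus wild-type), each ± 0.40 (SE). Without the 0 min arrays they were 0.09, 0.43 and 0.52, each ± 0.42.

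The other 2 Dab2 probe sets were designed on a single cDNA entry and still differed from each other. Probe set 98044_at read 117.5, 708.8, 294.6, 444.2 and 579 in rescue, -250.8, 341.8, 615.3, 772.5 and 813.6 in Srf-null and 507.7, 616.9, 183.5, 694.7 and -37 in wild-type cells at the same times. The lines overlapped on it, with differences of -0.17, 0.35 and 0.18 (± 0.70) for rescue minus Srf-null, Srf-null minus wild-type and rescue minus wild-type. Without the 0 min arrays they were -0.32, 1.08 and 0.75 (± 0.65), again with overlapping arrays. Probe set 98045_s_at was above the floor only in rescue cells, on 4 of 5 arrays. It read -3, 301.3, 352.9, 295.6 and 179.2 in rescue cells. It lay between -339.2 and 3.7 in Srf-null cells and between -294.5 and 24.3 in wild-type cells. From 10 min on rescue cells were thus at least 3.22-fold above the floor level of either other line. Over all 15 arrays the fold was 2.55, which is no lower limit, because the rescue 0 min value was itself raised to the floor. The suffix _s marks probe sets that can read more than 1 transcript. Over the 15 arrays the Dab2 probe sets correlated weakly with each other (Pearson r of 0.28, 0.29 and 0.19). Probe set 98045_s_at correlated with Tfap2c at r = 0.72, with Plac8 at 0.64 and with Esx1 at 0.61. As it was at the floor on all other arrays, these values mostly set the rescue arrays from 10 min on against the rest. The data therefore give no single Dab2 level per line.

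**Figure D2:**
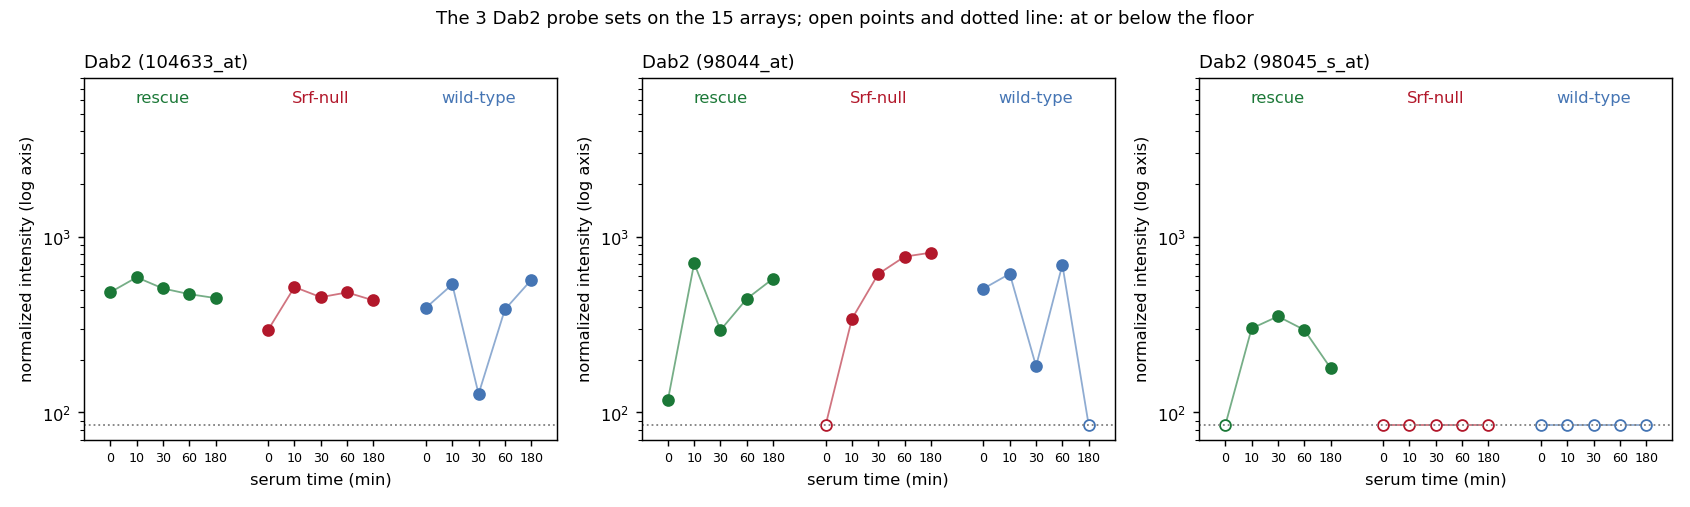
Normalized intensity (log axis) of the 3 Dab2 probe sets against serum time in minutes, with 1 point per array; open points lie at or below the floor (dotted line). On 104633_at and 98044_at the lines overlap, and on 98045_s_at only rescue arrays, from 10 min on, stand above the floor.

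**Figure D3:**
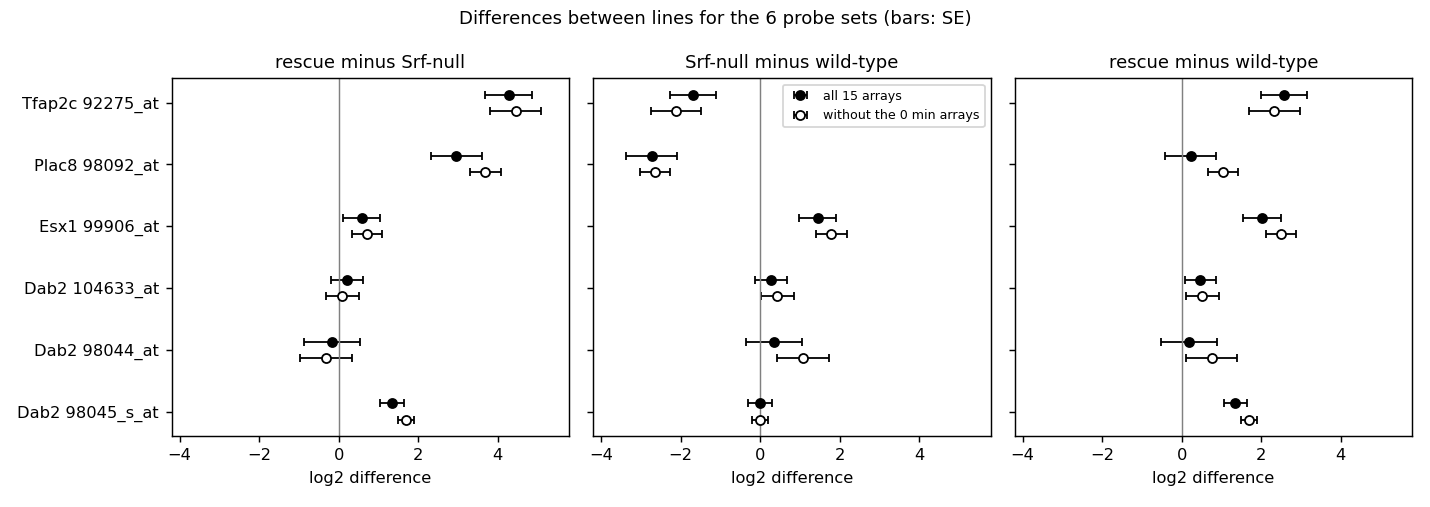
Log2 differences between lines for the 6 probe sets, with bars of 1 SE, over all 15 arrays (filled) and without the 0 min arrays (open). Tfap2c is shifted to rescue cells against both lines (4.27 and 2.57), Plac8 away from Srf-null cells (2.95 and -2.73) and Esx1 away from wild-type cells (1.44 and 2.02), while 104633_at of Dab2 lies near 0 and 98044_at reaches 1.08 for Srf-null minus wild-type without the 0 min arrays.

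For scale, the medians over all 9558 tested probe sets were -0.02 for rescue minus Srf-null, 0.02 for Srf-null minus wild-type and 0 for rescue minus wild-type. In limma's test a probe set was called at a Benjamini-Hochberg adjusted p under 0.05. Over all 15 arrays 0.22% of tested probe sets were called between rescue and Srf-null cells, 0% between Srf-null and wild-type and 0% between rescue and wild-type cells. Unadjusted p-values were under 0.05 for 878, 916 and 693. Without the 0 min arrays 2.25% were called between rescue and Srf-null cells, 0.324% between Srf-null and wild-type cells and 0.398% between rescue and wild-type cells. Unadjusted p-values were then under 0.05 for 1299, 1153 and 941 of the 9558. The 3 comparisons share arrays, since each line enters a pair of them.

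Serum responses of the 4 genes were taken as the change from the mean of 0 and 10 min to later times of the same line. For Esx1 the changes at 30, 60 and 180 min were 0.87, 1.25 and 0.73 in rescue cells and 0.63, 0.87 and 0.72 in Srf-null cells. In wild-type cells they were -1.31, -0.66 and -1.31, the opposite direction at every time. Averaged over the lines, Esx1 therefore changed little, by 0.28 ± 0.34 (SE) early (30 and 60 min) and 0.04 ± 0.41 late (180 min). With 10 min alone as the baseline the wild-type changes were smaller, -0.44 early and -0.76 late. Those in rescue cells were then 0.94 and 0.61, and those in Srf-null cells 0.99 and 0.95. The wild-type values at 30 and 180 min were below the floor.

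Tfap2c had an average change of 0.95 ± 0.48 (SE) early and 1.96 ± 0.58 late. With 10 min alone as the baseline these were 0.25 and 1.26. From the 10 min baseline the late change was 0.66 in rescue, 3.32 in Srf-null and -0.2 in wild-type cells. Each of these late changes is 1 array minus 1 array, so no SE is given. The Srf-null value came from the 180 min array alone. In rescue cells the level at 10 min was already close to that at 30 and 60 min.

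For Plac8 the apparent serum response in rescue cells rested on the 0 min array. The changes at 30, 60 and 180 min were 2.31, 1.41 and 1.92 in rescue cells with 0 and 10 min as the baseline. With 10 min alone the early change in rescue cells was -0.45. The changes in Srf-null cells were -1.14, -1.14 and -0.99, where the baseline held the 10 min array, the 1 Srf-null array clearly above the floor. Those in wild-type cells were -0.69, -0.28 and -0.17. The main Dab2 probe set had -0.31 ± 0.36 early and 0.07 ± 0.44 late on average over the lines, both within 1 SE of 0. Its largest single change was -1.85 in wild-type cells at 30 min.

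Across the 15 arrays, Tfap2c and Plac8 correlated at r = 0.63, Tfap2c and Esx1 at r = 0.24 and Esx1 and Plac8 at r = -0.07. These are descriptions over arrays that share lines and RNA quality. The genes most like Tfap2c were Impact (r = 0.905), Csrp1 (0.896) and Lsm8 (0.876). Csrp1 encodes a LIM-domain protein of the actin cytoskeleton. The genes most like Esx1 were Pigq (0.836), Nav1 (0.833) and Tek (0.824), the last encoding the angiopoietin receptor. Those most like Plac8 were Rad50 (0.927), a DNA repair gene, Dtd1 (0.898) and Amot (0.874), which encodes angiomotin. For Dab2 they were Rundc3a (0.818), Grk6 (0.818) and Ncaph2 (0.8). Their Spearman rho was only 0.524, 0.492 and 0.316, and 0.827 to 0.926 for the 9 genes of the other members, so the Dab2 likeness rested on few arrays. They are the best of 9558 candidates, among which some high values are found in any case.

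Other genes of the same lineages were read from lists, which were chosen with earlier results of these data known. Counts of called list genes are therefore descriptions and no test of an excess over all probe sets. A gene with several probe sets was represented by that of highest mean. Of 40 further trophoblast genes 33 had a probe set and 27 were tested. Over all 15 arrays 0 were called in any comparison. Unadjusted p-values were under 0.05 for 11, 4 and 6 genes in rescue against Srf-null, Srf-null against wild-type and rescue against wild-type. From 10 min on, where 2.25% of all probe sets were called, 4 trophoblast genes were higher and 2 lower in rescue than in Srf-null cells, and the list median was 0.15 against -0.01 for all probe sets. The 3 largest of these rises were keratins of simple epithelia, which are not limited to trophoblast. Krt18 was 2760 to 7040 in rescue, 157 to 363 in Srf-null and 1550 to 2130 in wild-type cells from 10 min on. It rose by 4.0 ± 0.23 in rescue over Srf-null cells (adjusted p = 0.000298) and was lower in Srf-null than in wild-type cells (-2.91 ± 0.23, adjusted p = 0.00296). The 0 min arrays did not show this order, with 200.8 in rescue, 532.1 in Srf-null and 309.8 in wild-type cells. Krt8, its partner in the filament, followed with 2.64 ± 0.19 (adjusted p = 0.000613) and -2.18 ± 0.19 (adjusted p = 0.00417). Krt19 rose by at least 2.99 ± 0.42 (adjusted p = 0.0118), because the transcript was at the floor in Srf-null cells. These calls were lost over all 15 arrays, with 2.92 ± 0.67 for Krt18 (adjusted p = 0.119), 2.05 ± 0.39 for Krt8 (adjusted p = 0.0564) and 2.39 ± 0.51 for Krt19 (adjusted p = 0.0948) in rescue over Srf-null cells. Against wild-type cells they were -2.17 ± 0.67 for Krt18 (adjusted p = 0.381) and -1.95 ± 0.39 for Krt8 (adjusted p = 0.232) in Srf-null cells. From 10 min on the actin 3′/5′ ratio moved with the keratin differences between rescue and Srf-null cells, as with Tfap2c. Its part was not tested, and the Gapdh ratios of those arrays overlapped. On the wild-type 180 min array the actin ratio was 2.11 and Krt18 read 2081.2.

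Phlda2, an imprinted gene that limits placental growth, was lower in rescue than in Srf-null cells (-1.32 ± 0.22, adjusted p = 0.0225). With the 0 min arrays it was -1.07 ± 0.33 (adjusted p = 0.264). It read 581 to 1050 in rescue, 1690 to 2330 in Srf-null and 904 to 1930 in wild-type cells from 10 min on. The other called members were named after their values were seen. They were the imprinted placental gene Peg10, which was higher (1.79 ± 0.32, adjusted p = 0.0301), and the connexin gene Gjb5, which was lower in rescue cells (-0.54 ± 0.09, adjusted p = 0.0252). Neither was called over all 15 arrays (adjusted p = 0.264 for Peg10 and 0.114 for Gjb5). Krt8 and Krt18 were the 2 trophoblast genes called between Srf-null and wild-type cells, both lower, beside 0.324% of all probe sets and a list median of -0.06. Between rescue and wild-type cells 0 were called (10 at an unadjusted p under 0.05, list median 0.09). Among the transcription factor genes that define the lineage, Cdx2 (-0.04 ± 0.11, adjusted p = 0.935) and Eomes (-0.27 ± 0.41, adjusted p = 0.831) were not called between rescue and Srf-null cells, and they are named outside the rule.

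Of 38 further endoderm genes 35 had a probe set and 29 were tested. From 10 min on 3 were called higher in rescue than in Srf-null cells (list median 0.02), beside 2.25% of all probe sets called. All of them are genes of basement membrane or collagen production that other cells express too. They were Serpinh1, a collagen chaperone (2.7 ± 0.26, adjusted p = 0.00321), and the type IV collagen genes Col4a1 (1.14 ± 0.20, adjusted p = 0.0267) and Col4a2 (1.17 ± 0.22, adjusted p = 0.0375). On the full set of 15 arrays they were 1.81 ± 0.58 (adjusted p = 0.3), 1.06 ± 0.27 (adjusted p = 0.16) and 0.68 ± 0.36 (adjusted p = 0.617), and none was called. Serpinh1 read 1330 to 2480 in rescue, 155 to 536 in Srf-null and 402 to 1300 in wild-type cells. On the rescue 0 min array it read 173.6. The endoderm regulators Gata4 (0.02 ± 0.63, adjusted p = 1) and Gata6 (0.69 ± 0.36, adjusted p = 0.446) were not called and are named outside the rule, as regulators of Dab2's lineage. In the other 2 comparisons 0 endoderm genes were called, with 2 (Srf-null against wild-type) and 3 (rescue against wild-type) at an unadjusted p under 0.05 and list medians of 0.06 each. Over all 15 arrays 0 were called in the 3 comparisons, with 5, 0 and 2 at an unadjusted p under 0.05.

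**Figure D4:**
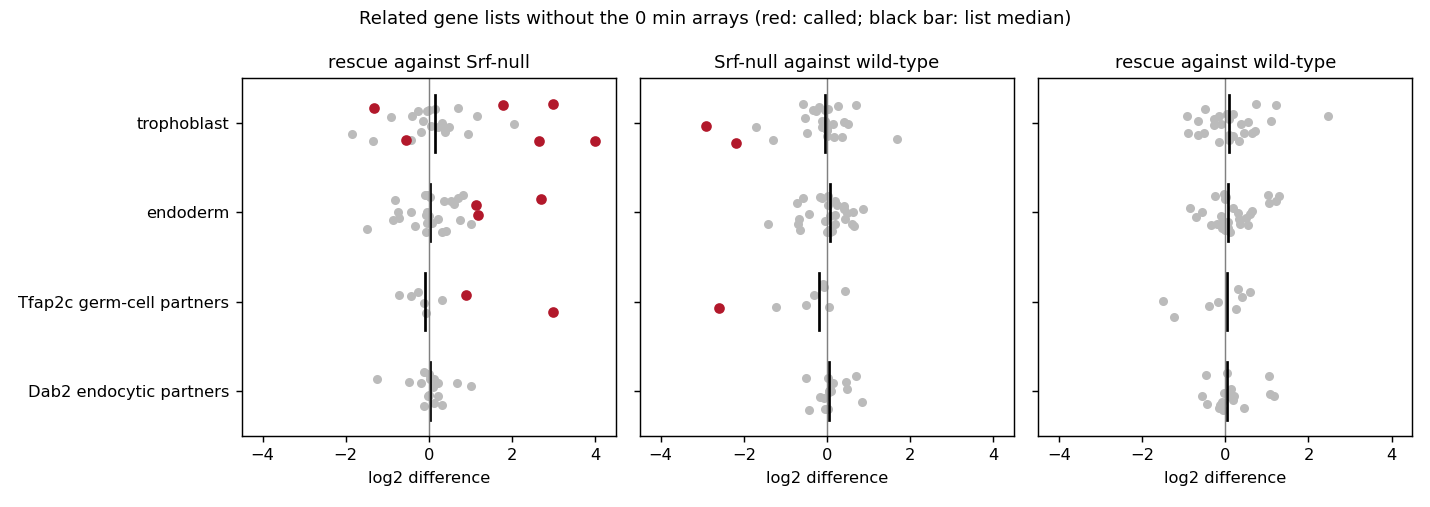
Log2 differences between lines from 10 min on for tested genes of 4 lists, with 1 point per gene, called genes in red and the list median as a black bar. Most genes lie near 0, and the called ones are few, with Krt18 (4.0) farthest to the right between rescue and Srf-null cells.

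Of 22 endocytic partners of Dab2 (lipoprotein receptors, AP2 and clathrin subunits and related adaptors), 17 were tested and 0 were called in any comparison, over all 15 arrays or from 10 min on. Their medians from 10 min on were 0.03, 0.04 and 0.03 for rescue against Srf-null, Srf-null against wild-type and rescue against wild-type, with 2, 1 and 2 at an unadjusted p under 0.05. Lrp2, Cubn and Amn stand in this list and in the endoderm list. Among the other Tfap2 family members, Tfap2a was tested and was not called. It differed by 0.1, 0.05 and 0.14 (each ± 0.26) from 10 min on, with an adjusted p of 0.921, 0.968 and 0.912 in limma's test. Tfap2b did not pass the filter on low values.

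Of 15 genes that act with Tfap2c in germ cells or as its cofactors, 8 were tested. Over all 15 arrays 0 were called, with 2, 1 and 0 at an unadjusted p under 0.05. After 0 min Dppa3, a maternal and germ-line gene also found in ES cells, read 2363.1, 1556.6, 1673.1 and 2876.3 at 10, 30, 60 and 180 min in rescue cells. The values were 414.3, 319.3, -75.6 and 399.9 in Srf-null cells and 1634.9, 1580.2, 1455.5 and 1585.1 in wild-type cells. Dppa3 was higher in rescue than in Srf-null cells (2.99 ± 0.37, adjusted p = 0.00624) and lower in Srf-null than in wild-type cells (-2.59 ± 0.37, adjusted p = 0.038). The receptor gene Kit was higher in rescue than in Srf-null cells (0.9 ± 0.16, adjusted p = 0.032). Of all probe sets, 2.25% were called between rescue and Srf-null cells from 10 min on and 0.324% between Srf-null and wild-type cells. With all 15 arrays Dppa3 gave 2.38 ± 0.64 (adjusted p = 0.172) and -1.66 ± 0.64 (adjusted p = 0.463), and Kit 0.42 ± 0.36 (adjusted p = 0.772). The list medians were -0.1 for rescue against Srf-null, -0.2 for Srf-null against wild-type and 0.04 for rescue against wild-type, where 0 were called (3 at an unadjusted p under 0.05). On the 0 min arrays Dppa3 read 352.5 in rescue, 359.8 in Srf-null and 27.7 in wild-type cells, so its difference was seen from 10 min on.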

How the data were processed

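Samples were grouped by their titles. The deposited table holds linear intensity values for 12654 probe sets. Per the labels, MGU74A arrays were hybridized, while the authors' software, background correction and scaling were not given in the sources used here. Negative intensity values show that a signal had been subtracted. Array medians of the deposited intensity were 108 to 467 and 2% trimmed means 348.4 to 1438, so the values were not on a common scale. They were quantile-normalized, floored at the 40th percentile (84.98), and log2 was taken. A probe set entered the tests if at least 2 of 15 arrays exceeded the floor (9558, without 66 controls). Names came from the platform annotation, with 10298 probe sets having 1 symbol, 363 several and 1993 none, and 10279 symbols were updated through gene identifiers. The tests were limma's (version 3.58.1, R 4.3.3, lmFit and eBayes with trend, Benjamini-Hochberg over all tested probe sets). The model for lines had line and time as additive factors (8 residual degrees of freedom, 6 without 0 min). Serum phases were cell means per line (baseline, early, late), with 6 residual degrees of freedom over all 15 arrays and fewer without 0 min. SEs are moderated. The code was tested on simulated data.

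The members and lists were chosen with earlier results of these data known. Named were all probe sets of the 4 genes, the 3 genes most correlated with each, up to 4 called genes per list and comparison by adjusted p, and measured Tfap2 family members. The number of arrays limits the precision. Alternatives covered scaling, floor, filter, model terms and each array left out.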

Additional observations from a re-analysis of the deposited data

Results flagged for a closer look

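In 16 sets of 5 arrays with values above the floor (1 probe set in 1 line), the highest or lowest array was compared with the rest by Dixon's criterion on floored log2 values. It flags about 1 in 20 sets by chance where values are not tied. That rate does not hold for sets with arrays tied at the floor, such as Tfap2c in Srf-null cells, where 1 array above 4 tied ones is always flagged. In 5 sets an array stood out. Tfap2c read 852 on the Srf-null 180 min array, where the other 4 arrays of that line were at the floor. It read -109 on the wild-type 0 min array, against 479 on the nearest wild-type array. Plac8 read 27.5 on the rescue 0 min array, against 1120 on the nearest rescue array. It read 412 on the Srf-null 10 min array, against 93.9 on the nearest Srf-null array. The main Dab2 probe set read 127 on the wild-type 30 min array, against 386 on the nearest wild-type array. The rescue and wild-type 0 min arrays among these had actin 3′ to 5′ ratios of 4.22 and 7.53, the Srf-null 180 and 10 min arrays 1.94 and 1.79 and the wild-type 30 min array 1.3. Their part in these values was not tested.

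In 18 pairs of a probe set and 2 lines, the changes at 30, 60 and 180 min from the baseline of the same line were also compared in direction. In 5 pairs every array of one line moved one way and every array of the other the opposite way. The differences between the mean changes, which were not tested, were as follows on the log2 scale. For Esx1 they were 1.84 for Srf-null minus wild-type and 2.05 for rescue minus wild-type. With 10 min alone as the baseline the wild-type changes of Esx1 were smaller, -0.44 early and -0.76 late. For Plac8 the differences were 2.97 for rescue minus Srf-null and 2.25 for rescue minus wild-type, both resting on the rescue 0 min array. For the main Dab2 probe set, rescue minus Srf-null was -0.39, with mean changes of -0.17 in rescue and 0.22 in Srf-null cells. The opposite direction rested on the 0 min arrays: with 10 min alone as the baseline the early change was -0.26 in rescue and -0.15 in Srf-null cells, and the late change -0.39 and -0.25.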

How the results depend on the processing

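The members' line differences gave 318 values under alternative settings. They were compared with the residual SD of the model, the spread left after line and time. Of these values 309 moved by less than that SD, 9 moved further and 0 reversed beyond it. These counts overstate stability, since several settings could not move a difference. They were the filter, trend and time-term settings, and leaving out an array of the line outside the comparison. Leaving out the rescue and wild-type 0 min arrays also repeated the differences found without any 0 min array. With the floor at the 60th percentile (449.4), rescue minus Srf-null became 2.35 for Tfap2c and 1.52 for Plac8. Srf-null minus wild-type became -0.26 for Tfap2c, 0.02 for Esx1 and -0.81 for Plac8, and rescue minus wild-type became 0.39 for Esx1. A higher floor hides differences among low values. With the floor at the 35th percentile (33.9), chosen after seeing the data because the planned 20th percentile (-102.4) has no log and was not run, Tfap2c rescue minus Srf-null became 5.33. Dab2 read by 98045_s_at gave 1.35 for rescue minus Srf-null and for rescue minus wild-type. Near 0, Plac8 rescue minus wild-type was -0.19 to 1.0 leaving out 1 array (1.0 without the rescue 0 min array) and -0.04 with the lower floor. Dab2 Srf-null minus wild-type was -0.13 without the wild-type 30 min array, -0.2 with arrays scaled to a common median and -0.05 with the higher floor.

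Counts of called probe sets depended strongly on the 0 min arrays, and the cause was not tested. Rescue against Srf-null had 21 calls, 10 with arrays scaled to a common median, 37 with the higher floor, 36 with 4 arrays required above the floor, 215 without the 0 min arrays, 211 without the rescue and wild-type 0 min arrays, 10 with the non-positive share as a term, 12 without a time term and 4 to 103 leaving out 1 array. Srf-null against wild-type had 0 calls, 1 with the higher floor, 2 without a filter, 31 without the 0 min arrays or without the rescue and wild-type ones, and 0 to 20 leaving out 1 array. Rescue against wild-type had 0 calls, 5 with the higher and 2 with the lower floor, 2 without a filter, with 4 arrays required or without a trend, 38 without the 0 min arrays or without the rescue and wild-type ones, 7 with the 18S signal as a term, 3 without a time term and 0 to 20 leaving out 1 array. The arrays that raised these counts most were those of 0 min (103, 90 and 48 calls for rescue against Srf-null without the rescue, Srf-null and wild-type 0 min array). The lowest count, 4, came without the rescue or the Srf-null 60 min array. The 20 calls came without the Srf-null 0 min array for Srf-null against wild-type and without the rescue 0 min array for rescue against wild-type.

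The serum comparisons, whose calls are used nowhere else in the text, varied as well. The early response had 0 calls, 15 without a filter, 66 without the 0 min arrays and 0 to 86 leaving out 1 array. The late response had 5, 2 with the higher floor, 233 without a filter, 0 with 4 arrays required, without a trend or with either added term, 166 without the 0 min arrays, 16 without the rescue and wild-type ones and 4 to 50 leaving out 1 array. Srf-null minus the other lines had 2 calls early, 44 with a common median, 0 with the higher floor, 40 without a filter, 5 with 4 arrays required, 41 without a trend, 57 without the 0 min arrays, 0 without the rescue and wild-type ones, 5 with the non-positive term, 0 with the 18S term and 0 to 385 leaving out 1 array. Late it had 1 call, 0 with the lower and 2 with the higher floor, 248 without a filter, 0 with 4 arrays required, 149 without the 0 min arrays, 2 without the rescue and wild-type ones, 15 with the non-positive term, 0 with the 18S term and 1 to 258 leaving out 1 array. The highest of these counts (86, 50, 385 and 258) all came without the Srf-null 10 min array. Late responses could not be computed where a line's 180 min array was left out.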
